A study of Gossypium hirsutum with 89 samples.

Results

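Some probe sets on the cotton array set 1 of the 5 genotypes apart from the other 4 on every day sampled, from the ovule on the day of flowering to fibre that was thickening its wall. For each probe set, V was the mean of log2(signal + 4.4) over the arrays of a genotype and day. The gap was the distance by which V of a genotype lay above all 4 others or below all 4 others. The smallest gap over the 6 days ranked the probe sets, and the 100 with the largest smallest gap are the members, out of 24132 probe sets on the array. Control probe sets were left out, and V had to reach 8, a signal of about 252, for some genotype on some day (30 groups), which 12516 probe sets did. The differences among genotypes chose the members, so these differences are given as a description with no test. Members are numbered by rank, member 1 having the largest gap, and the plot of the named members pairs each number with the probe set identifier in the deposited table.

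The arrays held RNA from field-grown upland cotton, Gossypium hirsutum, of 5 genotypes that differ in fibre traits. Per the labels, JKC 725 and JKC 777 have superior traits and JKC 703, JKC 783 and JKC 737 inferior traits, and no treatment or transgene is named for any of them. Samples came from 0, 6, 9, 12, 19 and 25 days after the flower opened, written dpa for days post anthesis. There were 3 replicates of each, but 2 for JKC 783 at 25 dpa, so 89 arrays were used. At 0 dpa the sample was the whole ovule and later it was fibre alone, so the step from 0 to 6 dpa changes tissue and day together. The labels number the replicates but do not say whether they came from separate plants, so p-values measure the spread between these samples, which may be partly technical.

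Cotton fibres are single cells that grow out from the seed coat, elongate, and then lay down a thick secondary wall of cellulose. Upland cotton is an allotetraploid, with an A and a D copy of most genes, and a probe on an expression array pairs with a short stretch of transcript. A difference in signal between genotypes can therefore reflect the amount of a transcript or its sequence under the probes, and intensities alone do not separate these. In bulk samples, fewer cells of a type and less RNA per cell cannot be told apart either.

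The fibre labels were checked against markers. KCS12, a fatty acid elongase of elongating fibre, had a median signal of 13.0 at 0 dpa and 7345 at 6 dpa. The fibre genes E6 and LTP3 rose too but were already bright at 0 dpa. E6 had medians of 2511 at 0 dpa and 12310 at 6 dpa. The brighter LTP3 probe set had 5768 and 14640. FLA6, an arabinogalactan protein of secondary wall stages, had medians of 76.7 at 12 dpa and 7110 at 19 dpa for 1 of its probe sets. The highest array of that probe set at 12 dpa was already at 11130. CTL1 and CelA1, also of secondary wall stages, took other courses. CTL1 had medians of 243.5 at 19 dpa and 12730 at 25 dpa. A CelA1 probe set rose from 520 to 15010 between these days. Another had medians of 3615 at 12 dpa, 6274 at 19 dpa and 3261 at 25 dpa. The histone gene HIS2B, a sign of dividing cells, was bright at all stages, with medians from 4411 at 19 dpa to 8495 at 0 dpa. The seed gene Lea5-D was present too, with medians of 1951 at 0 dpa, 661 at 6 dpa and 5936 at 25 dpa. Lea14-A, also a seed gene, took another course, with medians of 98.5 at 0 dpa, 702 at 6 dpa and 124 at 25 dpa. The part of such cells in the results was not tested. Array medians lay between 59.9 and 120, and replicates correlated with a median r of 0.974 and a lowest r of 0.932 over probe sets.

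The members went against a label. Each array was placed between the other genotypes, at 0, and the marked genotype, at 1, by its median over the members of that genotype. When the members were chosen without JKC 725 25 dpa replicates 2 and 3, the library labelled JKC 725 25 dpa replicate 3 lay at 0.96 over 28 JKC 703 members and at -0.01 over 22 JKC 725 members. It was nearer to JKC 703 in 27 of those 28 members. The library labelled JKC 725 25 dpa replicate 2 lay between, at 0.51 over the JKC 703 members and 0.42 over the JKC 725 members. For the 86 arrays outside JKC 725 25 dpa, positions were read over members chosen without any array of the same replicate number. Over the members of the labelled genotype they had a median of 0.98, and 84 of 86 were above 0.5. The exceptions were JKC 783 0 dpa replicate 3, at 0.31, and JKC 783 25 dpa replicate 2, at -0.017. Of their 344 positions over the members of other genotypes, 2 were above 0.5, both of JKC 703 arrays over JKC 725 members, and the highest was 0.61. Read in the same way, JKC 725 25 dpa replicate 1 lay at 1.33 over 15 JKC 725 members. It lay at 0.08 over 35 JKC 703 members. Mixed or exchanged samples as a cause were not tested. Leaving out JKC 725 25 dpa replicates 2 and 3 kept 83 of the 100 members, and the number that mark JKC 725 was then 22.

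**Figure D1:**
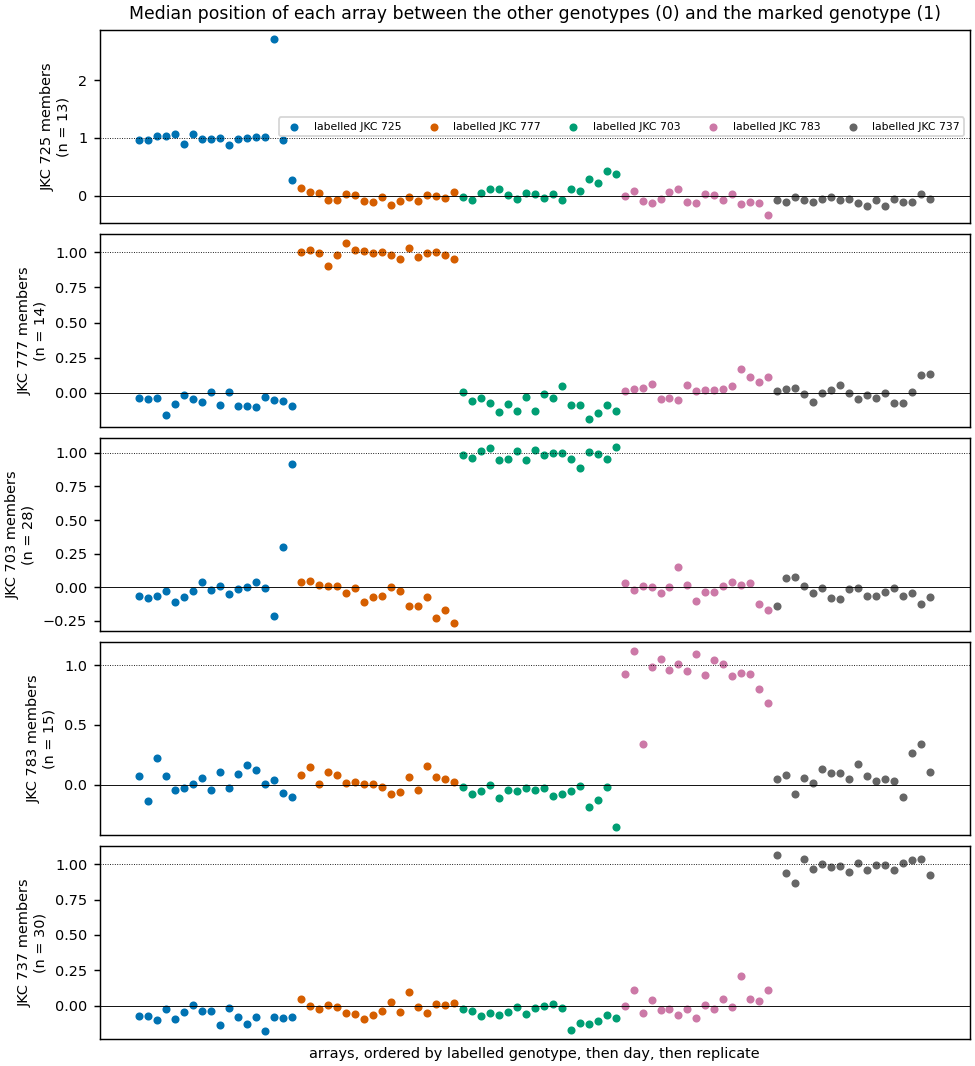
Median position of each of the 89 arrays (points, coloured by labelled genotype) over the members of each genotype, chosen from all arrays, with 1 panel per marked genotype. On the y axis 0 is the mean of the other genotypes on that day and 1 is the marked genotype. The library labelled JKC 725 25 dpa replicate 3 lies at 0.91 in the JKC 703 panel, among the JKC 703 arrays. Replicate 1 of that group lies at 2.71 in the JKC 725 panel because both other arrays of the group pull its mean toward the other genotypes.

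Of the 100 members, 71 were lower and 29 higher in the marked genotype. JKC 737 was marked by 30, 26 lower and 4 higher. JKC 703 was marked by 28, of which 17 were lower and 11 higher. JKC 783 had 15 members, 7 lower and 8 higher. JKC 777 had 14, 12 lower and 2 higher, and JKC 725 had 13, 9 lower and 4 higher. The 2 superior genotypes thus had 27 members and the 3 inferior genotypes 73. Over all eligible probe sets, 423 of 12516 (3.38%) had some genotype beyond the other 4 on the mean of every day, the property the rule used. Of these 423, 174 (41.1%) marked a superior genotype. By direction, the 423 held 49 lower and 26 higher in JKC 737, 68 and 74 in JKC 703, and 15 and 17 in JKC 783. They held 34 lower and 13 higher in JKC 777, and 64 and 63 in JKC 725. A lower member can reach the minimum V through the other genotypes, and with a minimum V of 10 the lower members were 58 of 100.

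**Figure D2:**
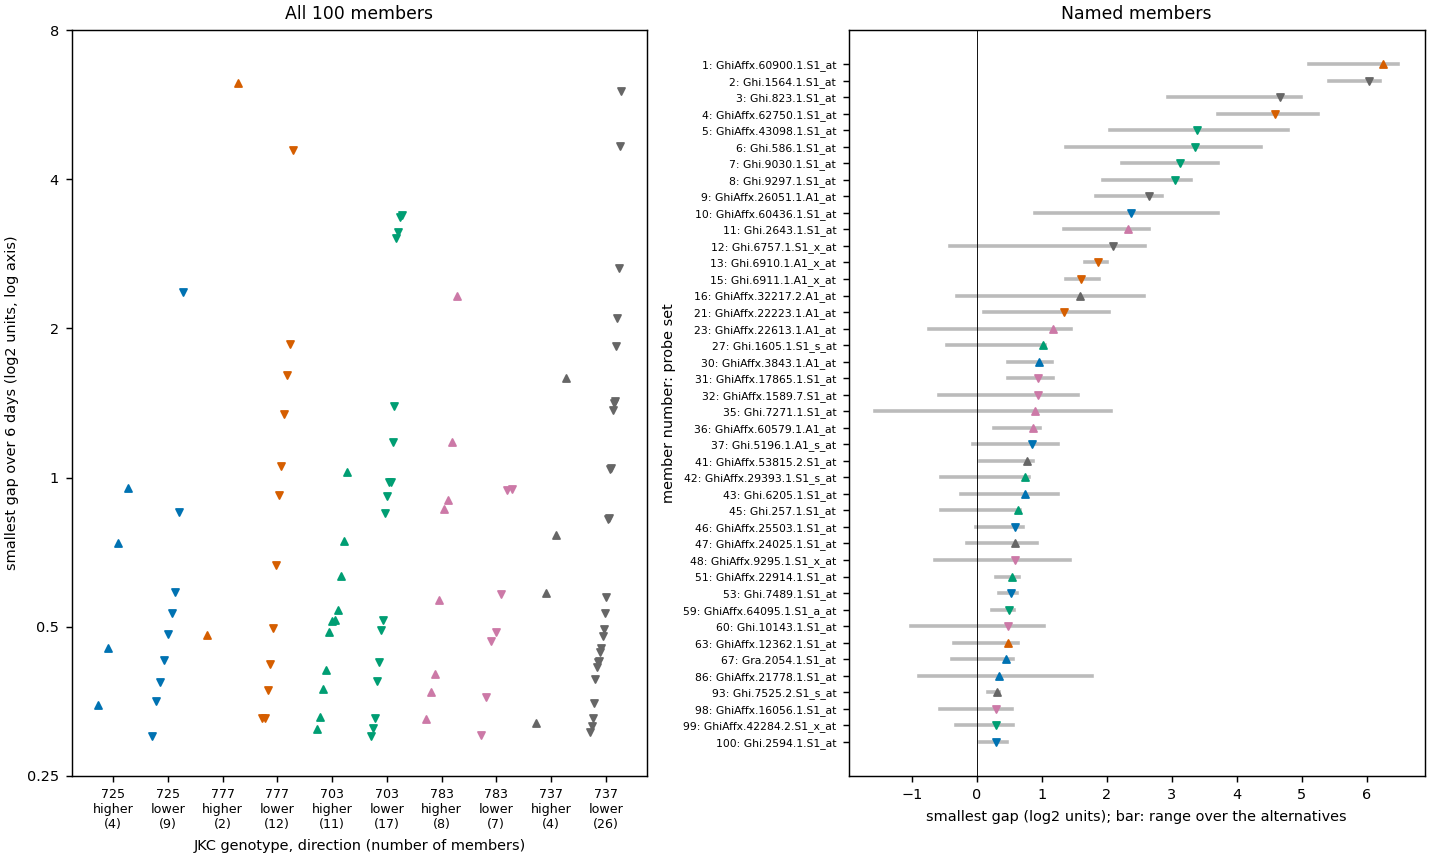
Smallest gap over the 6 days, in log2 units on a log axis, for each of the 100 members (points) by marked genotype and direction, in the left panel. Most members lie under 1, and the members above 4 mark JKC 777 and JKC 737. The right panel gives the number and probe set identifier of the 42 named members, with grey bars for the range over the alternatives.

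Most gaps were small. The median smallest gap was 0.55 on the log2 scale, 44 members were at or under 0.5, 27 reached 1 and 12 reached 2. Of the 27 at 1 or more, 22 were lower and 5 higher in the marked genotype. The median ratio between the marked genotype and the mean of the other 4 was 4.33-fold on the scale of signal + 4.4. The smallest gap was above the member's replicate SD in 64 members and above 2 SD in 30. At the edge of the set, members 99 and 100 had gaps of 0.3011 and 0.3007. The next 2 probe sets, left out, had 0.2981 and 0.2968 and were lower in JKC 725. The edge thus separates nearly equal values.

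On each of the 6 days, all arrays of the marked genotype lay beyond all arrays of the others in 25 members. Among all eligible probe sets, members included, 28 (0.224%) did so. The rule chose members for large gaps on these same arrays, so these counts are a description. Over all days at once, 10 members kept the marked arrays beyond every other array, and no other eligible probe set did (0.0799%). These 10 were 5 lower in JKC 737, 3 lower in JKC 777, 1 higher in JKC 777 and 1 higher in JKC 783. In 21 members, the lower side stayed under a signal of 40.4, the 40th percentile of the table, on every day, and 17 of these were lower in the marked genotype.

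Member 1 had the largest gap and was high in JKC 777. In JKC 777 its signals were 3787, 3985 and 3457 at 0 dpa, 1671, 1694 and 1819 at 19 dpa and 1557, 1900 and 1166 at 25 dpa. In the other 4 genotypes its highest signal on any array was 25.7, in JKC 783. No array of another genotype came near JKC 777, and the gap ran from 6.25 to 8.30 over the days. The tables used here give it no gene.

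The next 2 gaps marked JKC 737, which was low. Member 2 lay at 18.8 to 68.4, with a median of 34.6, over the 18 arrays of JKC 737. Its medians in the other genotypes were 3558 to 3819, and its lowest signal there was 2634. Its replicate SD was 0.20, and its smallest gap was 6.03. Member 3 had a median of 10.1 and a highest signal of 25.5 in JKC 737, against medians of 509 to 734 and a lowest of 246 elsewhere. The groups did not overlap for either probe set. Member 9 was lower in JKC 737 too, with a median of 28.2 against 226 to 372. Its highest JKC 737 signal was 81.6 and the lowest elsewhere 140, with a smallest gap of 2.65.

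Member 4 was low in JKC 777, with a lowest signal of 4.50, a median of 17.6 and a highest of 45.5 over 18 arrays. Its medians elsewhere ran from 945 in JKC 783 to 1407 in JKC 737. The lowest array elsewhere, at 533 in JKC 783, was still above every JKC 777 array. The smallest gap was 4.58.

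**Figure D3:**
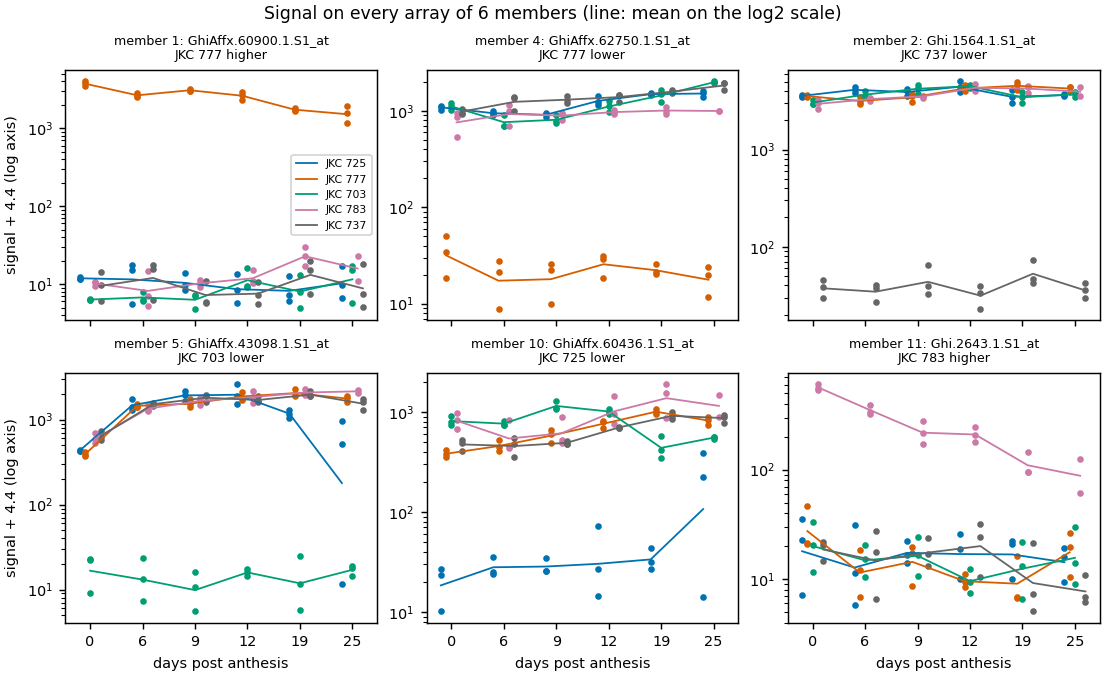
Signal + 4.4 on a log axis against days post anthesis for 6 members, with 1 point per array and a line through the mean on the log2 scale, coloured by genotype. The mean of the marked genotype is apart from those of the others on every day, and the JKC 725 points at 25 dpa spread from the JKC 703 level to that of the other genotypes for member 5.

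Of the members, 2 that were low in JKC 777 are the only ones with exactly 1 gene in the annotation table. Members 13 and 15 both belong to LOC107953447, a protein-coding gene with no descriptive name in the table used. Member 13 had a median of 131 in JKC 777 and 799 to 985 in the other genotypes, with a gap of 1.86. Member 15 had 197 against 973 to 1250, with a gap of 1.61. Neither overlapped between JKC 777 and the rest on any day. Another probe set of the gene, which is no member, did not set JKC 777 apart: JKC 777 had a median of 916, close to the 963 of JKC 737, and the other medians were 1168 to 1733. The gene's remaining probe set in the table had medians of 7.52 to 9.43 in all 5 genotypes. Probe sets of the same gene thus gave unlike pictures of the genotypes. Member 21, also low in JKC 777, had a median of 4.64 there and 270 to 492 elsewhere, but its JKC 783 arrays ran from 0.561 to 451. The other named JKC 777 member, member 63, was higher there with a median of 1526 against 330 to 641.

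JKC 703 had 4 low members with gaps above 3, and in each of them JKC 725 25 dpa replicate 3 gave a signal near that of JKC 703. Member 5 had a median of 10.9 and a highest signal of 20.2 in JKC 703. In JKC 725 it gave 968, 507 and 7.19 at 25 dpa, where replicate 3 was at the JKC 703 level. Its gap was 3.39 with all arrays, 4.54 without that array and 2.05 without replicate 1 of every group. Member 7 had a median of 28.3 in JKC 703 and medians of 957 to 1264 elsewhere. Its JKC 725 signals at 25 dpa were 1030, 561 and 33.8, so replicate 3 again stood with JKC 703. Member 8 gave 852, 441 and 20.7 on those arrays, and its JKC 703 median was 26.1. Member 6 had the lowest JKC 703 level of the 4, a median of 1.59, against 99.4 to 222 elsewhere, and gave 176, 105 and 3.86 in JKC 725 at 25 dpa. Leaving out that replicate 3 moved the gaps of members 6, 7 and 8 little, from 3.36, 3.13 and 3.04 to 3.39, 3.58 and 3.04.

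The members higher in JKC 703 had smaller gaps. Member 27 had a median of 764 in JKC 703 against 35.0 to 314, with a gap of 1.03. Member 42 was alike, with 826 against 28.6 to 296. For both, JKC 783 was the nearest genotype on most days. Member 45 had a median of 166 in JKC 703 and 4.73 to 119 elsewhere. Its JKC 725 signals at 25 dpa were 10.98, 111 and 242, with the last in the JKC 703 range. Member 51 had a median of 157 in JKC 703 against 39.8 to 82.8, and its arrays did not overlap on any day.

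JKC 725 was marked most clearly by member 10, which was low there. Its 18 JKC 725 arrays had a median of 22.5, against medians of 619 to 874 elsewhere. At 25 dpa they gave 9.67, 219 and 384, so replicates 2 and 3 moved toward the other genotypes. The gap was 2.37 with all arrays, 3.30 without that replicate 3 and 0.89 without replicate 1 of every group. Member 37 had a median of 297 in JKC 725 against 1156 to 1508. Member 46 had 110 against 224 to 262, and member 53 had 935 against 1673 to 2201 with a replicate SD of only 0.14. Among the higher members, member 43 had a median of 1509 in JKC 725 against 204 to 222. Member 30 had 530 against 18.6 to 80.6, and member 86 had 185 against 20.1 to 24.7.

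JKC 783 had 1 member whose arrays stood apart throughout, member 11. Its signals were 600, 533 and 557 at 0 dpa, 211, 168 and 275 at 9 dpa, and 121 and 57.4 at 25 dpa. No other genotype exceeded 42.3 on any array. Member 36 was higher in JKC 783 with a median of 103 against 15.7 to 32.9. Member 31 was lower with a median of 78.3, against 285 in JKC 777 and 1167 in JKC 725. Member 48, which the table assigns to 4 genes, was lower as well, with a median of 96.6 against 1581 to 1763, but its highest JKC 783 array was 2543.

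In other JKC 783 members the replicates were split, and 7 of the 15 had a replicate SD above 1 in JKC 783. Member 23 was called higher by the rule, yet its 17 JKC 783 arrays had a median of 20.2 and ran from 1.67 to 1606. At 0 dpa its replicates gave 16.7, 1606 and 1309, at 9 dpa 507, 12.8 and 14.5, and at 12 dpa 4.72, 520 and 617. Within each of these days it was near background on some replicates and bright on the others. Member 35 gave 887, 8.99 and 5.56 at 0 dpa and 190 and 2.30 at 25 dpa, but 137 to 871 with no dark array on the days between.

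Widely spread replicates were most frequent in JKC 783. The replicate SD was above 1 in JKC 783 for 32 of the 100 members, against 3.28% of the eligible probe sets. The threshold of 1 was chosen after the values were seen. In JKC 725 the count was 9 members, against 1.69% of the eligible probe sets. It was 3 in JKC 777, against 0.855%. JKC 703 had 2, against 0.575%, and JKC 737 had 2, against 0.679%. Only 7 of the 32 marked JKC 783. In 21 of the 32, JKC 783 was the nearest genotype on most days, as it was for 28 of the 85 members that mark another genotype.

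Member 12, low in JKC 737 with a median of 2.36, had all-or-none replicates. In JKC 783 its replicates gave 0.596, 890 and 868 at 0 dpa, 2.55, 9.19 and 642 at 6 dpa, and 509, 10.3 and 5.52 at 9 dpa. Its medians in JKC 725, JKC 777 and JKC 703 were 574, 462 and 491, so JKC 783 arrays took either the JKC 737 level or that of the other 3 genotypes. Member 16, high in JKC 737 with a median of 389, gave 0.580, 9.32 and 262 in JKC 783 at 6 dpa and 350, 10.9 and 3.07 at 9 dpa. The same replicates were bright for both probe sets on those days. Member 27 went the other way, with 1410, 1160 and 58.4 at 6 dpa and 55.4, 382 and 668 at 9 dpa.

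The same arrays recurred. These were replicate 3 at 6 dpa, 1 at 9 dpa, 2 and 3 at 12 dpa and 1 at 19 dpa, 5 arrays in all. The other JKC 783 arrays of those days numbered 7. Compared within each day only, the 5 lay above the others of the same day in 7 of the 32 members. They lay below them in 13, and the remaining 12 were mixed. Across days the 5 and the 7 could overlap. In a member lower in JKC 737 and counted as below, replicate 1 at 19 dpa gave 315 and replicate 2 at 9 dpa gave 250. These 5 arrays were picked from the members' own values, so the counts are a description. Among the 411 eligible probe sets with a JKC 783 SD above 1, the 5 arrays were above in 22 and below in 31, again within each day. A mixture of plants within JKC 783 was not tested.

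**Figure D4:**
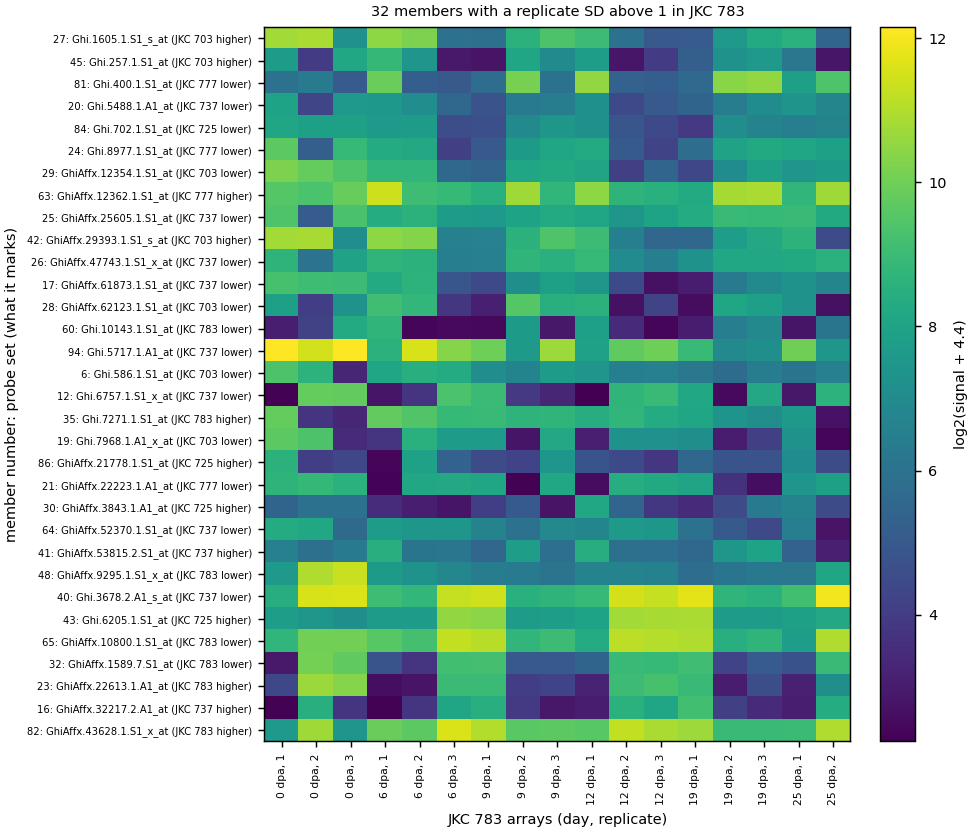
Log2(signal + 4.4), as colour, on the 17 JKC 783 arrays (columns, by day and replicate) for the 32 members with a replicate SD above 1 in JKC 783 (rows, with the genotype and direction each marks). In many rows, though not all, replicates of a day switch between dark and bright. The same 5 arrays (6 dpa 3, 9 dpa 1, 12 dpa 2 and 3, 19 dpa 1) lie together in many rows.

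JKC 737 had few higher members. Beside member 16, member 41 had a median of 242 in JKC 737 against 27.5 to 63.7. Member 47 had 1104 against 151 to 320. Member 93 had 2888 against 1414 to 2046, a small difference with a replicate SD of 0.13. Member 99 was lower in JKC 703 with a median of 41.3, next to 84.7 in JKC 737 and 497 to 571 in the other 3.

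The size of the gap varied little with the day. Its median over the members was 1.15 at 0 dpa, 1.41 at 6, 1.47 at 9, 1.38 at 12, 1.43 at 19 and 1.18 at 25 dpa. The smallest gap fell at 25 dpa in 24 members, at 0 dpa in 23 and at 9 dpa in 5.

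The choice was repeated without each replicate number in turn, and the gap was then read in the replicate left out. Of the 100 probe sets chosen without replicate 1, 61 had the marked genotype beyond all others on all 6 days in that replicate, against 2.45% of the eligible probe sets. Without replicate 2 the count was 47, against 1.97%. Without replicate 3 it was 66 over the 5 days that could be read, against 3.25%. Of the probe sets chosen with a gap of at least 1, 14 of 15, 19 of 29 and 20 of 28 held in replicates 1, 2 and 3.

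Identifiers were the only other property that most members share a record of, since 97 of the 100 have no gene in the tables used. Most of the array has none there either, as 743 of its 24132 probe sets have a gene. Probe sets with the plain suffix at, for probes designed to a single transcript, were 66.0% of the members and 46.4% of the eligible probe sets. The suffix s_at, for probes shared by several transcripts, was 19.0% against 44.4%, and x_at, for probe sets with possible cross-hybridisation, 13.0% against 7.56%. For 9 members, a probe set with the same identifier stem was also eligible, 11 in all. Of these 11, 8 lay on the same side and 1 was beyond the other genotypes on every day. The median difference toward the marked side was 0.23 for these 11 and 1.87 for their members.

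Stage was then tested, since the rule did not use the change between days. The rule did need a gap on every day. A marked genotype could thus not reach the level of the others on any day, which limits its changes between days. In 17 lower members the marked side also stayed under the 40th percentile of signal on every day, with little room to fall. How far these limits affected the counts of members called was not tested. The transition compared late fibre (mean of 19 and 25 dpa) with early fibre (mean of 6, 9 and 12 dpa), averaged over the genotypes. Calls needed a limma adjusted p under 0.05 together with a log2 change of 1 or more. Over all 18881 probe sets tested, 18.4% were called. All 100 members were tested and 12 were called, 3 higher and 9 lower late, against 8.73% and 9.68% of all tested. With each array centred on its median the members' split was 8 higher and 8 lower, against 13.5% and 7.01% of all tested. The median change was -0.22 over the members and -0.02 over all tested.

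The largest rise among the members was in member 30, high in JKC 725, which rose by 2.83 ± 0.21 (SE; limma adjusted p = 2.1e-19). In JKC 725 its signals were 99.1, 77.2 and 46.8 at 6 dpa and 4177, 4465 and 4055 at 19 dpa. At 25 dpa they were 4966, 2550 and 897. In JKC 703 it gave 11.7, 15.9 and 5.37 at 6 dpa and 1613, 1395 and 1449 at 19 dpa. Late arrays were thus above the early ones in both genotypes, at different levels. In JKC 783 the change was 0.86 ± 0.50 (limma adjusted p = 0.15), which did not pass.

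Member 37, low in JKC 725, rose by 1.22 ± 0.10 (limma adjusted p = 7.4e-18). Member 98, low in JKC 783, rose by 1.22 ± 0.12 (limma adjusted p = 8.5e-14). Its median was 246 in JKC 783 and 421 to 2083 elsewhere.

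The largest falls were in member 59, member 67 and member 100. Member 59, low in JKC 703, changed by -2.25 ± 0.07 (limma adjusted p = 4.8e-38). Its JKC 703 signals were 116, 213 and 184 at 6 dpa and 10.7, 20.3 and 12.9 at 25 dpa. In JKC 725 it went from 312, 429 and 439 to 27.9, 27.5 and 32.2 over the same days. Early and late arrays did not overlap on these days in either genotype. Member 67, higher in JKC 725 with a median of 730 against 327 to 424, changed by -1.99 ± 0.12 (limma adjusted p = 2.0e-24). Member 100, low in JKC 725 with a median of 83.9 against 257 to 385, changed by -1.98 ± 0.12 (limma adjusted p = 5.0e-24). Without JKC 725 25 dpa replicates 2 and 3, these 6 changes were 2.95, 1.01, 1.14, -2.25, -1.83 and -1.95 in the order given, and all 6 remained called.

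Within the genotype that a member marks, 8 of 13 JKC 725 members were called in the transition, against 30.5% of all tested in JKC 725. Without JKC 725 25 dpa replicates 2 and 3 the count was 5. In JKC 703, 4 of 28 were called, against 34.0%. In JKC 783, 4 of 15 were called, against 18.3%, and in JKC 737, 3 of 30, against 22.5%. In JKC 777, limma called 0 of 14, against 19.9%, and 5 of the 14 had an unadjusted p under 0.05. Some of these had an adjusted p under 0.05 as well but changed by less than 1. Member 1 was among them, at -0.78 ± 0.27 (limma adjusted p = 0.013). With an offset of 32 the JKC 725 count was 5 and the JKC 737 count 1, and with an offset of 1 the JKC 737 count was 5. Whether these shares differ among genotypes was not tested, nor how far the gap that the rule needs on every day limited the member counts.

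From 0 dpa ovule to 6 dpa fibre, 28 of 100 members were called, 11 higher and 17 lower, against 23.1% of all tested and 8.42% and 14.7% by direction. The median of all tested moved by -0.28 in this step, and that of the members by -0.39. With each array centred on its median, 16 members were higher and 7 lower, against 13.1% and 6.85% of all tested. Member 47, high in JKC 737, fell by 2.36 on the log2 scale (SE 0.20; limma adjusted p = 3.1e-17). Member 30 fell by 2.05 (SE 0.32; limma adjusted p = 7.7e-08) before its late rise. Member 51, high in JKC 703, fell by 1.53 (SE 0.16; limma adjusted p = 2.9e-13). Member 5 rose by 1.15 (SE 0.26; limma adjusted p = 5.8e-05) and member 59 by 1.10 (SE 0.11; limma adjusted p = 1.2e-13). These 5 kept their direction under every alternative run, and 4 also kept their call. Member 59 changed by 0.99 with an offset of 32, short of the threshold of 1. Among the named members, members 8, 9, 36 and 67 were called lower in this step too. Their smallest falls under the alternatives were -0.78 in member 8, -0.92 in member 36 and -0.93 in member 67, all short of the threshold. In member 9 the smallest was -1.001.

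Within the marked genotype, the step was called in 2 of 13 members in JKC 725 (33.5% of all tested there), 2 of 14 in JKC 777 (29.1%) and 6 of 28 in JKC 703 (30.3%). It was called in 6 of 15 in JKC 783 (19.8%) and 4 of 30 in JKC 737 (18.4%). The JKC 737 count was 7 without replicate 3 and 1 with an offset of 32. The JKC 777 count was 4 without replicate 1 and 1 without replicate 3, with an offset of 32 or with either other scaling, and the JKC 783 count 4 without replicate 2.

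**Figure D5:**
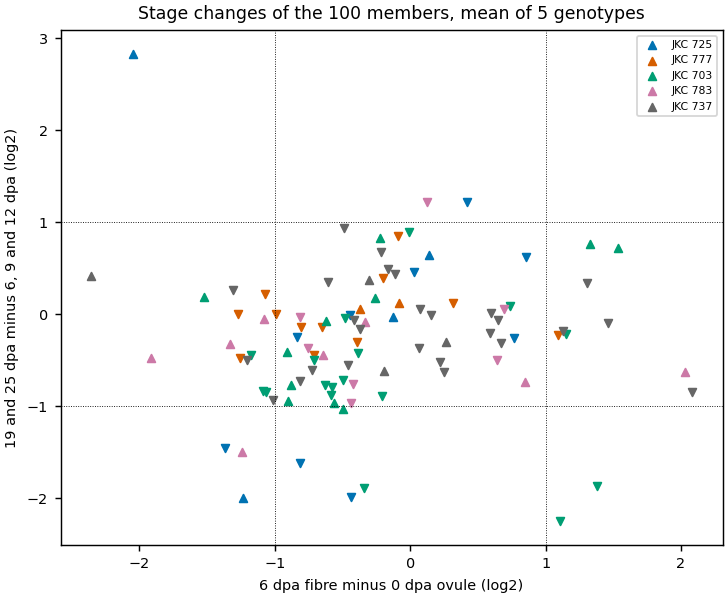
Change from 0 dpa ovule to 6 dpa fibre (x axis) and from 6, 9 and 12 dpa to 19 and 25 dpa (y axis), both in log2 units and averaged over the 5 genotypes, for the 100 members (points up for higher and down for lower members, coloured by marked genotype). Dotted lines mark a change of 1. Member 30 lies alone at the top left, at -2.05 and 2.83.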

How the data were processed

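The authors' deposited values are intensities on a linear scale, 1 for each probe set on each array, made with MAS5 per the submitters' processing notes (version not stated). Its trimmed means over 2% to 98% of each array, recomputed here, lay between 500.1 and 500.2, and no other normalization between arrays was found. All columns were mapped to samples by their labels. Here log2(signal + 4.4) was averaged by genotype and day and the rule applied in Python 3.11.15 with numpy 2.4.6 and pandas 2.3.3. Genotype differences got no test. Stage changes were tested with limma 3.58.1 in R 4.3.3 (lmFit, eBayes with trend), 30 group means, and Benjamini-Hochberg adjustment over 18881 probe sets with a group mean of at least 40.4, the 40th percentile. The fits were tested on simulated data. The number of arrays limits the precision. The members and lists were chosen with earlier results of these data known.

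Named are the 4 members with the largest gap per genotype and direction, members with a gene, the members and non-members at the edge of the set, and the 3 largest rises and falls in the transition. Alternatives were other offsets, scalings, filters, day sets and replicates, and, chosen after seeing the data, leaving out 1 or 2 JKC 725 arrays and reading array positions over members chosen without that replicate number. In the median, same-numbered replicates did not deviate together (r 0.001 over 1276 pairs, against -0.002 for different numbers), so the numbers were not used as pairs. The lowest r of same-numbered pairs was -0.61, and 207 of the 1276 were above 0.1. Sequences and coordinates are not used here.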

Additional observations from a re-analysis of the deposited data

Results flagged for a closer look

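Outside the members, 159 control probe sets (103 AFFX, 52 RPTR and 4 GhirRNA) were left out by the rule, and 1 of them had a genotype beyond the other 4 on the mean of every day. RPTR-Ghi-A00196-1_s_at was higher in JKC 777 with a smallest gap of 2.34, a signal in data that no comparison used, and 10 members had a larger gap. It was at 3582 to 9230 on 11 of the 18 JKC 777 arrays and at no more than 28.5 on the other 7. On the 71 arrays of the other genotypes it did not exceed 17.0. Member 1, by contrast, was bright on all 18 JKC 777 arrays. The cause was not tested.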

How the results depend on the processing

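Of the 100 members, 85 were chosen again with quantile normalization, 83 with each array centred on its median, 96 and 89 with offsets of 1 and 32, 80 with a minimum V of 6 and 51 with a minimum V of 10. Taking the median of the replicates kept 71 and the fibre days alone 69. Leaving out replicates kept 60 to 99, the lowest without replicate 1. The lower members numbered 58 with a minimum V of 10 and 65 to 76 under the other alternatives. The gap was above 0 under all 14 alternatives in 61 members and at 1 or more in 13. With an offset of 32, 2247 probe sets were called in the transition, against 3475. The replicate block gave 3474 calls in the transition and 4368 in the step to fibre, with 12 and 28 members called, and changed no count of members called. The cause of the changes below was not tested.

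With the median of the replicates, the gap turned below 0 in 20 of the 100 members, and without replicates 1, 2 and 3 in 27, 9 and 10. Of the 42 named members these were, with the median of the replicates, members 23 (-0.35), 27 (-0.46), 32 (-0.37), 35 (-0.91), 37 (-0.04), 42 (-0.55), 43 (-0.24), 48 (-0.39), 60 (-0.60) and 63 (-0.34). With quantile normalization member 60 was at -0.034.

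With a replicate left out, gaps of named members that turned below 0 ranged from -0.41 to 2.10 in member 12, -0.31 to 2.58 in member 16, -0.74 to 1.18 in member 23, -0.34 to 1.03 in member 27 and -0.58 to 1.55 in member 32. They ranged from -1.56 to 2.06 in member 35, -0.054 to 1.26 in member 37, -0.47 to 0.81 in member 42, -0.16 to 1.26 in member 43 and -0.54 to 0.63 in member 45. The others were members 46 (-0.017 to 0.72), 47 (-0.16 to 0.59), 48 (-0.64 to 1.32), 60 (-1.01 to 1.03), 63 (-0.35 to 0.63), 67 (-0.37 to 0.56), 86 (-0.89 to 1.04), 98 (-0.56 to 0.45) and 99 (-0.32 to 0.30). Gaps that stayed above 0 but moved by over 1.5 times, beside those of members 5 and 10, were those of members 21 (0.12 to 2.04), 30 (0.49 to 0.95), 31 (0.49 to 1.17), 36 (0.26 to 0.97), 41 (0.045 to 0.84), 51 (0.30 to 0.64), 53 (0.34 to 0.54) and 100 (0.17 to 0.41).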
